A study of Mus musculus with 19 samples.

Results

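The 10 genes described here are targets of the transcription factor ATF4 in the integrated stress response: Asns, Chac1, Trib3, Sesn2, Atf5, Psat1, Phgdh, Slc7a11, Slc7a5 and Slc3a2. They were taken by name, as the rows of the count table whose Ensembl identifier carries one of these symbols in GENCODE M21. Each symbol matched 1 row, which gave 10 genes among the 51789 of the table. Each of the 19 RNA libraries came from 1 dorsal hippocampus sample of a male C57BL/6J mouse, 2 to 4 months old. In experiment 1 all mice carried tTA, the transactivator that switches on tetracycline-controlled transgenes, and all had been exposed to SOR. Of these, 5 were tTA+/DN+, carrying a dominant-negative Nr4A transgene (DN), and 6 were tTA+ controls without DN. In experiment 2 no mouse carried DN: 4 mice had been exposed to SOR (1 tTA- and 3 tTA+) and 4 were kept in the homecage (2 tTA- and 2 tTA+). The labels give SOR by its abbreviation only, and the promoter that drives tTA is not given in the sources used here. The study's title concerns ER chaperones and memory, so the ATF4 targets were set beside 18 ER chaperone genes.

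In the integrated stress response, kinases that sense lack of amino acids, unfolded protein in the endoplasmic reticulum (ER), double-stranded RNA or lack of heme phosphorylate the translation factor eIF2alpha. General translation then falls, while the Atf4 messenger is translated more. ATF4 protein raises genes for amino-acid synthesis and uptake, tRNA charging and redox balance, often through a promoter sequence called the CARE. ER stress has other arms: ATF6 and spliced XBP1 raise chaperones such as Hspa5, often through the ER stress element (ERSE). A rise of chaperones can therefore occur with or without a rise of ATF4 targets.

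A few promoters are shown because the motifs named above differed in count between the ATF4 targets and the chaperones. Each of the 32851 RefSeq promoter windows (GRCm38.p6) ran from 250 bases before a gene's start to 50 after it, and both strands were searched for the CARE core TGATGNAA. It was found in 4 of the 9 ATF4 targets with an entry (44.4%), in 1 of 15 chaperones with an entry (6.67%) and in 3.97% of all windows. The ERSE, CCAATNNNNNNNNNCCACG, was found in none of the 9 ATF4 targets, in 7 of the 15 chaperones (46.7%) and in 0.119% of all windows. Slc7a11 held the CARE core at 2 places, on opposite strands. Chac1 held it on the reverse strand and Asns on the forward strand. Trib3 held it on the reverse strand just after the start, from base 15 to base 22. Below are the bases before the start for Slc7a11 (chr3:50443615-50443863, minus strand) and Chac1 (chr2:119350992-119351228, plus strand), and 30 bases around the match for Asns (chr6:7693214-7693243, minus strand). Capitals mark the CARE core, which reads TTGCATCA where it lies on the reverse strand.
Slc7a11: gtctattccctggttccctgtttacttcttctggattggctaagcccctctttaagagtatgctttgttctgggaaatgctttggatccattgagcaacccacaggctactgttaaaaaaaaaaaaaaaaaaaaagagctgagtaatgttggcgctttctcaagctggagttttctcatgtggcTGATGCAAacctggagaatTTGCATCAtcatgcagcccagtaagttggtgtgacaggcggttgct
Chac1: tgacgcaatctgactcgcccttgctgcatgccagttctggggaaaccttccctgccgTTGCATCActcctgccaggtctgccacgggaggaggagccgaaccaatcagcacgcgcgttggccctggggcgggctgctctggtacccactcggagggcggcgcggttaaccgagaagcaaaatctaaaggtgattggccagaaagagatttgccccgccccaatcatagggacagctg
Asns: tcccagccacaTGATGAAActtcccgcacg

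For contrast, the chaperone Hspa5 (chr2:34772020-34772049, plus strand, 30 bases around the match) and the cochaperone Dnajc3 (chr14:118937682-118937931, plus strand, 250 bases before the start) held the ERSE, in capitals below.
Hspa5: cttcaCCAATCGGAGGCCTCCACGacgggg
Dnajc3: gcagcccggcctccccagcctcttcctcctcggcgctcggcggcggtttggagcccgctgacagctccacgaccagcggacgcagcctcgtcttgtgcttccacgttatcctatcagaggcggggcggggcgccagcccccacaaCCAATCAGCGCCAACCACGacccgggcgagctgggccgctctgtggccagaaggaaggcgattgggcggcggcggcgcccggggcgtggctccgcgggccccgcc
A match of letters describes the window and shows no binding.

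Libraries held 22258159 to 66991576 counts. SOR replicate 3 had the fewest counts and the fewest genes with a count, 27815, against 30165 to 32495 in the other libraries. Markers of choroid plexus, a tissue that lines the ventricle next to the hippocampus, differed widely between libraries. Their summed level over 8 genes was 1354 and 4127 CPM (counts scaled to the library total) in experiment 1 control replicates 2 and 1, 1650.4 in DN replicate 2, and 993 and 2190.3 in SOR replicates 1 and 2 of experiment 2. The other 14 libraries lay between 18.4 and 170.2. The markers of hippocampal neurons, including Camk2a and Snap25, were detected in every group, with a summed level of 3096 to 4884 CPM over 6 genes.

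All 10 ATF4 targets were detected in every library, at levels that spanned a wide range. Per kilobase of annotated exon, Asns was highest, at a mean of 45.6 CPM over the 19 libraries, followed by Phgdh at 38.1, Psat1 at 29.98 and Slc3a2 at 24.5. Slc7a11 and Slc7a5 followed at 7.17 and 7.004, and their ranges over libraries (4.85 to 9.05 and 5.96 to 8.79) overlapped almost entirely. Atf5 (4.39), Chac1 (3.22) and Sesn2 (2.67) were lower, again with overlapping ranges. Trib3 was lowest, at 0.184 CPM per kilobase, with 6 to 28 counts per library. The amino-acid synthesis enzymes thus lay at the top of the order, and the pseudokinase Trib3 stood apart at the bottom. All CPM are scaled by TMM. Levels below are not divided by length, and they are compared only within a gene.

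In experiment 2, SOR against homecage, none of the 10 ATF4 targets passed the test, while 4 of 18 ER chaperones rose. Of the targets, 9 had a log2 fold change above 0 (all genes: 51.5%), with a median of 0.21 over the 10 against 0.0076 over all 22305 genes tested. The median was 0.12 without SOR replicate 3, with 9 of 10 above 0, and 0.086 in tTA+ mice alone, with 7 of 10 above 0. At an adjusted p under 0.05, 0.0897% of all genes were called. At an unadjusted p under 0.05, 1 target (Slc7a11, lower) was found, where 7.6% of all genes were. The groups did not overlap in CPM for 5.71% of all genes and for no ATF4 target. The estimates of the 9 targets other than the sparse Trib3 lay between -0.33 and 0.35, and their 95% intervals reached from -0.61 to 0.75. In this fit, rises above 1.68-fold lay outside the intervals of these 9. The limit depends on the libraries kept. Without SOR replicates 1 and 2, Phgdh was at 0.57 (SE 0.183), so that its interval reached higher. DESeq2 and every other setting run also called none of the 10. At an unadjusted p under 0.05 the count was 4 without SOR replicate 4 (Atf5, Slc7a5 and Slc3a2 higher, Slc7a11 lower), 2 without SOR replicate 2 (Phgdh and Slc7a11), and 0 without homecage replicate 2 or 3. The share of all genes at that p was not counted in these fits.

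**Figure D1:**
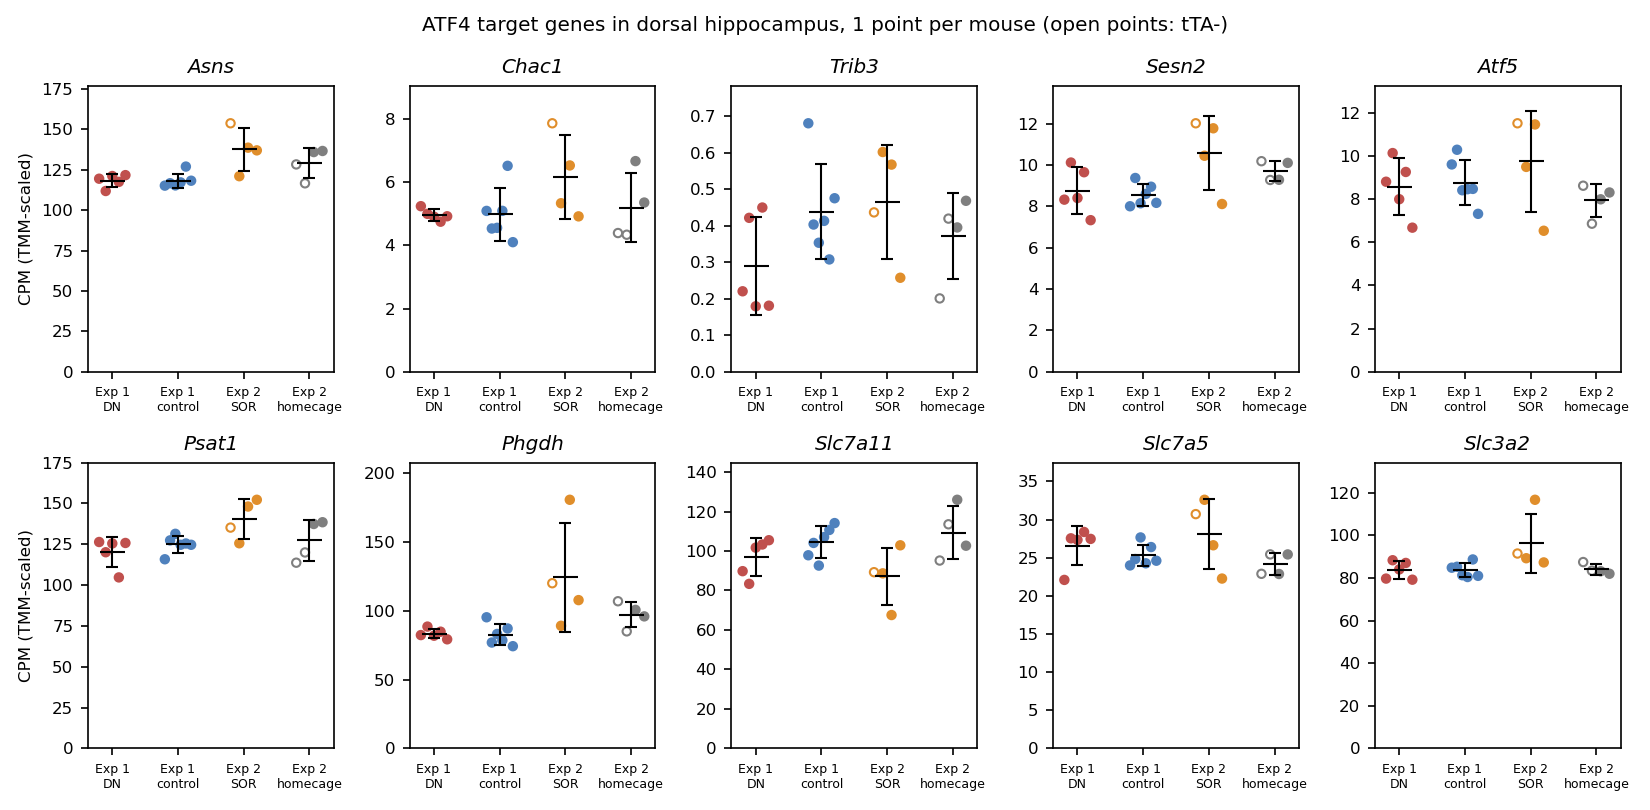
Level of each ATF4 target in TMM-scaled CPM (y axis from 0) in the 4 groups; each point is 1 mouse, open points are tTA- mice, and the bars give mean and SD. In each panel the groups that are compared (experiment 1 DN and control, experiment 2 SOR and homecage) overlap; Phgdh and Slc3a2 have 1 high SOR library, at 181 and 117 CPM.

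The amino-acid synthesis genes had small positive estimates after SOR. Asns, asparagine synthetase (chr6:7675169-7693254, minus strand), was at 154, 121, 139 and 137 CPM in the 4 SOR libraries and at 128, 117, 136 and 137 in the homecage. Only the tTA- SOR library, replicate 1, stood clearly above the homecage range. The log2 fold change was 0.09 (SE 0.092, 95% interval -0.11 to 0.29, unadjusted p = 0.355). Psat1, the transaminase of serine synthesis (chr19:15904678-15947337, minus strand), was at 135, 126, 148 and 152 CPM after SOR, against 114, 120.0, 137 and 139 in the homecage. The ranges overlapped, and within the homecage both tTA- libraries were lower than both tTA+ ones. The log2 fold change was 0.14 (SE 0.096, unadjusted p = 0.175). Phgdh, the first enzyme of serine synthesis (chr3:98313170-98339990, minus strand), had the highest estimate of the 10 with all libraries. It was at 120.0, 89.1, 181 and 108 CPM after SOR, against 107, 85.0, 101 and 95.9 in the homecage. SOR replicate 3, the shallowest library, was far above the rest, and replicate 2 lay within the homecage range. The log2 fold change was 0.35 (SE 0.180, 95% interval -0.04 to 0.75, unadjusted p = 0.0734, adjusted p = 0.662). Without SOR replicate 3 it was 0.12 (unadjusted p = 0.268), and without SOR replicates 1 and 2, rich in choroid plexus markers, 0.57 (unadjusted p = 0.0114, adjusted p = 0.333). Without replicates 1 and 2 Psat1 was at 0.23 and Asns at 0.087, and in tTA+ mice alone Psat1 was at 0.039 and Asns at -0.046.

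None of the amino-acid transport genes passed the test after SOR. Slc7a11, the cystine-glutamate exchanger subunit xCT (chr3:49892526-50443614, minus strand), was at 89.3, 88.7, 67.6 and 103 CPM after SOR, against 95.2, 114, 126 and 103 in the homecage. Of the SOR libraries, 3 lay below every homecage library, and the fourth, replicate 4, lay among them. It was the only one of the 10 with an estimate below 0, at -0.33 (SE 0.129, 95% interval -0.61 to -0.04, unadjusted p = 0.0269, adjusted p = 0.621). Its estimate was below 0 in all 16 alternatives run, between -0.42 and -0.22, with adjusted p from 0.196 to 0.998. Slc7a5, the light chain of the large neutral amino-acid transporter (chr8:121881150-121907694, minus strand), was at 30.7, 32.6, 26.6 and 22.3 CPM after SOR, against 22.9, 25.4, 22.9 and 25.4 in the homecage. Here 3 SOR libraries lay above the homecage range and replicate 4 below it, with a log2 fold change of 0.22 (SE 0.120, unadjusted p = 0.0976). Without the SOR libraries rich in choroid plexus markers, replicates 1 and 2, it was 0.010 (unadjusted p = 0.937). Slc3a2, the heavy chain shared by both transporters (chr19:8706882-8723369, minus strand), was at 91.5, 89.3, 117 and 87.3 CPM after SOR, against 87.5, 83.4, 83.2 and 82.0 in the homecage. The groups overlapped only by the lowest SOR and the highest homecage library, and SOR replicate 3 was far above the rest. The log2 fold change was 0.19 (SE 0.099, unadjusted p = 0.0756), and without SOR replicate 3 it was 0.089 (unadjusted p = 0.173). The estimate was thus negative for Slc7a11 and positive for Slc7a5 and Slc3a2, and the difference between these genes was not tested.

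The stress effectors were scarcer. Chac1, an enzyme that degrades glutathione (chr2:119351229-119354381, plus strand), was at 7.86, 5.33, 6.53 and 4.92 CPM after SOR, against 4.39, 4.34, 6.67 and 5.35 in the homecage. One homecage library exceeded 3 of the SOR libraries, and the log2 fold change was 0.24 (SE 0.193, unadjusted p = 0.238). Atf5, a transcription factor related to ATF4 (chr7:44812256-44816658, minus strand), was at 11.5, 9.48, 11.4 and 6.53 CPM after SOR, against 8.61, 6.86, 7.98 and 8.30 in the homecage. Replicate 4 was the lowest of all 8 libraries and the other SOR libraries were above the homecage range. The log2 fold change was 0.29 (SE 0.174, unadjusted p = 0.121). Atf5 shares 82 exonic bases with Nup62 and Il4i1 on the opposite strand, and the use of strand in counting is not given in the sources used here. Sesn2, a sestrin that restrains the growth kinase mTORC1 (chr4:132492032-132510501, minus strand), ranged from 8.12 to 12.02 CPM after SOR and from 9.28 to 10.2 in the homecage, a log2 fold change of 0.12 (SE 0.134). Trib3, a pseudokinase (chr2:152337422-152344032, minus strand), was at 0.437, 0.602, 0.568 and 0.258 CPM after SOR, against 0.201, 0.420, 0.396 and 0.469 in the homecage. At 6 to 28 counts in these libraries, its interval of -0.50 to 1.03 reached from 0.708 to 2.04 times the homecage level. Without SOR replicates 1 and 2 the estimates were 0.12 for Chac1, 0.16 for Atf5, 0.020 for Sesn2 and 0.0032 for Trib3, and in tTA+ mice alone they were -0.11, 0.16, 0.056 and 0.12. Other fits moved them up: without SOR replicate 4, Atf5 was at 0.44 (unadjusted p = 0.00765, adjusted p = 0.480), Sesn2 at 0.23 and Trib3 at 0.48, and without homecage replicate 3 Chac1 was at 0.39.

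The ER chaperones were read in the same 8 libraries. Hspa5, the main ER chaperone of the HSP70 family (BiP), was at 664, 605, 809.9 and 573 CPM after SOR, against 400.1, 318, 387 and 349 in the homecage. Every SOR library was above every homecage library (groups without overlap in either direction, all genes: 5.71%). Hspa5 rose by 0.87 on the log2 scale (SE 0.119, edgeR adjusted p = 0.0228). Sdf2l1, a partner of Hspa5, rose by 1.05 (adjusted p = 0.0200), the secreted ER protein Manf by 0.65 (adjusted p = 0.0133) and the cochaperone Dnajc3 by 0.46 (adjusted p = 0.0432). Over the 18 chaperones, 17 were above 0 with a median of 0.39, and 13 had an unadjusted p under 0.05, all higher, where 3.67% of all genes did. Xbp1, the transcription factor of the chaperone arm, rose by 0.70 (SE 0.077, adjusted p = 0.00879). It was called in 10 of 16 alternatives, with an estimate of 0.62 to 0.73 in all 16, and not in tTA+ mice alone (adjusted p = 0.998) or without SOR replicates 1 and 2 (adjusted p = 0.164). The chaperone calls depended on single libraries: none of the 18 was called without SOR replicate 1 or without any 1 of homecage replicates 1 to 4, and 3, 7 and 3 were called without SOR replicates 2, 3 and 4. With the replicate block 2 of the 18 were called, and Manf (adjusted p = 0.0710) and Dnajc3 (adjusted p = 0.139) were not. The count was 9 with DESeq2, 5 with no filter on low counts and 8 with all 19 libraries in 1 fit. With tTA as a covariate 1 of the 18 chaperones was called, and in tTA+ mice alone (3 against 2) none was, while their median was 0.38 and 0.41. With SOR replicates 1 and 2, rich in choroid plexus markers, left out, no chaperone and no ATF4 target was called. The chaperone median was then 0.43 with 14 of 18 at an unadjusted p under 0.05, and the median of the ATF4 targets was 0.10 with 1 of 10, Phgdh. An unadjusted p of 0.0467 (Sesn1) had an adjusted p of 0.346 there, against 0.650 for Ddit3 at 0.0443 with all libraries. More of all genes thus lay under 0.05 in this fit than in the main fit, and their share was not counted.

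**Figure D2:**
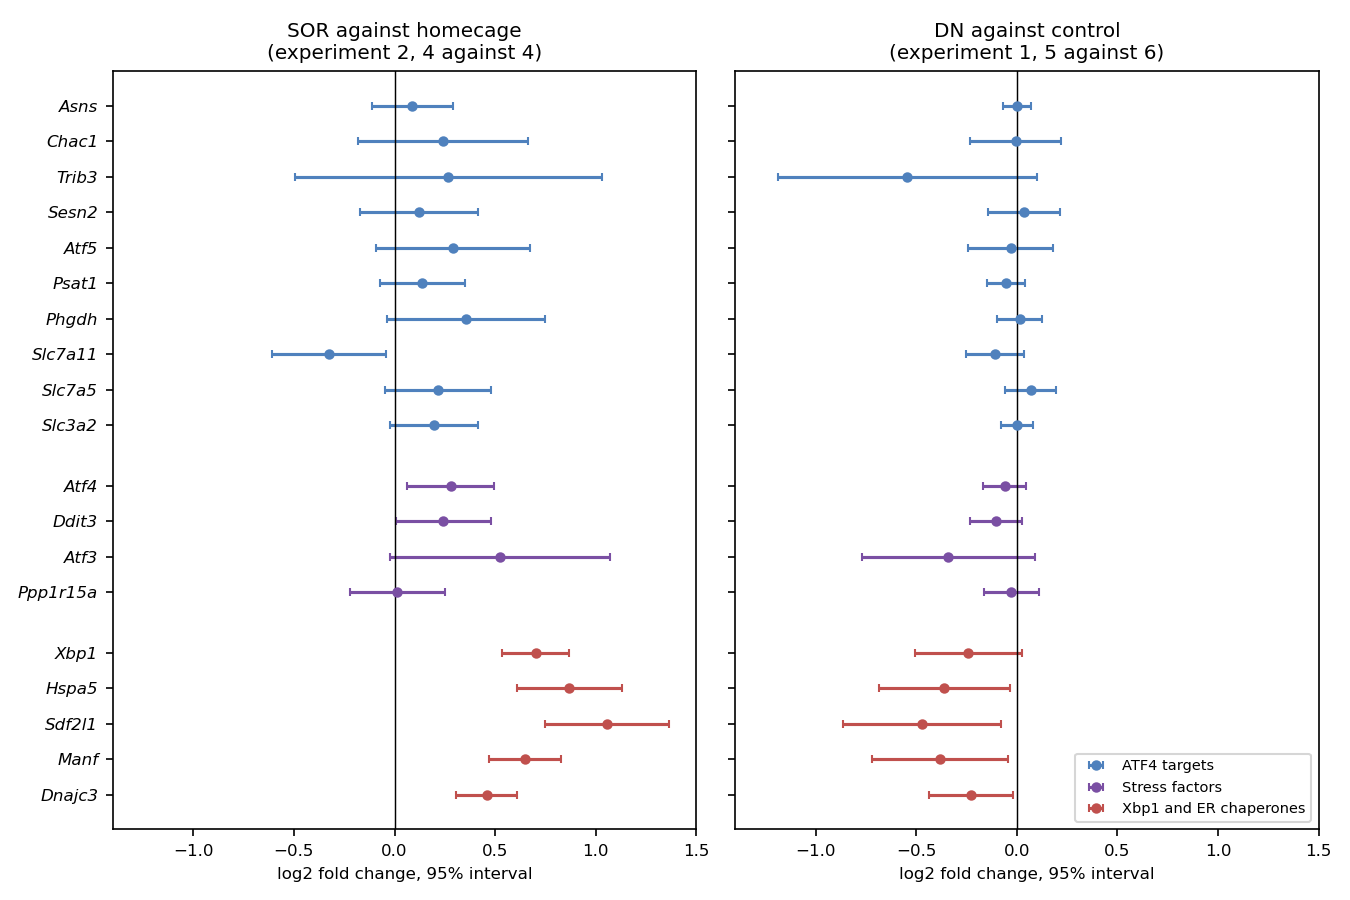
log2 fold change (x axis) with its 95% interval for the ATF4 targets, 4 stress factors, Xbp1 and 4 ER chaperones; left, SOR against homecage, right, DN against control. After SOR the chaperones and Xbp1 lie at 0.46 to 1.05 and the ATF4 targets between -0.33 and 0.35; with DN, 9 of the 10 targets lie between -0.11 and 0.07, and Trib3 at -0.54 has the widest interval.

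The level of Hspa5 was also set against each target within the same libraries, as the log2 ratio of their CPM. Hspa5 gained 0.55 (against Phgdh) to 1.20 (against Slc7a11) log2 units on the targets after SOR. With DN, Hspa5 lost 0.23 to 0.41 log2 units against 9 targets and gained 0.22 against Trib3. Hspa5 is 1 gene and was chosen for its rise after SOR, so these ratios largely restate that rise and carry no test. Whether the chaperones and the ATF4 targets differ as groups was not tested.

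In experiment 1, DN against control, the ATF4 targets lay close to their control levels. None of the 10 passed the test, none reached an unadjusted p under 0.05, and 5 had an estimate below 0. Over all 22391 genes, 0.00893% were called, 3.83% had an unadjusted p under 0.05 and 50% were below 0. The median over the 10 was -0.0025. With 1 library left out, 4 to 8 of the 10 were below 0, and the median ran from -0.033 (without control replicate 6) to 0.022 (without control replicate 5). Apart from Trib3 the estimates lay between -0.11 and 0.07, and their 95% intervals between -0.25 and 0.22, that is between 0.838 and 1.16 of the control level. The groups did not overlap for 0.299% of all genes and for no ATF4 target. With 1 library left out, 1 target reached an unadjusted p under 0.05 in 3 of 11 fits: Slc7a5 (0.13) without DN replicate 1, Slc7a11 (-0.14) without control replicate 3 and Trib3 (-0.79) without DN replicate 4.

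The abundant members were nearly level between the genotypes. Asns was at 119, 112, 121, 117 and 122 CPM in the DN libraries, and the 6 controls had a lowest, median and highest value of 115, 117 and 127. All DN libraries but replicate 2 lay within the control range. The log2 fold change was 0.00092 (95% interval -0.07 to 0.07). Slc3a2 was at 79.7, 88.3, 84.0, 87.1 and 79.2 CPM with DN, against 80.4, 83.0 and 88.7 in the controls, a log2 fold change of 0.0014 (95% interval -0.08 to 0.08). Phgdh was at 82.3, 88.5, 81.9, 84.8 and 79.2 CPM with DN, within the control values of 74.2, 80.8 and 95.3, a log2 fold change of 0.01 (95% interval -0.10 to 0.13). Psat1 was at 105 CPM in DN replicate 4 and at 120.1 to 126 in the other DN libraries, against 116, 125 and 131 in the controls. Its log2 fold change was -0.05 (95% interval -0.15 to 0.04), and ran from -0.073 to -0.0065 over the 17 alternatives.

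Among the transporters and effectors the intervals were wider and also spanned 0. Slc7a11 was at 89.8, 83.4, 102, 103 and 105 CPM with DN, against 92.6, 106 and 114 in the controls, a log2 fold change of -0.11 (SE 0.068, unadjusted p = 0.129). This estimate ran from -0.14 to -0.061 over the 17 alternatives. Slc7a5 was at 22.1 CPM in DN replicate 1 and at 27.3 to 28.4 in the other DN libraries, against 24.0, 24.7 and 27.7 in the controls. Its log2 fold change was 0.07 (SE 0.061, unadjusted p = 0.264). Chac1 ranged from 4.75 to 5.24 CPM with DN and from 4.10 to 6.52 in the controls, Sesn2 from 7.34 to 10.1 and from 8.01 to 9.38, and Atf5 from 6.67 to 10.1 and from 7.31 to 10.3. Their log2 fold changes were -0.0059, 0.04 and -0.03. Trib3 had the lowest estimate, -0.54 (SE 0.309, 95% interval -1.19 to 0.10, unadjusted p = 0.0937). It was at 0.221, 0.422, 0.180, 0.450 and 0.181 CPM with DN, against 0.308, 0.409 and 0.681 in the controls. In DN, 3 libraries with 6 to 8 counts lay below all controls and 2 lay among them.

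Most chaperones had estimates below 0 with DN, and none passed the test. Of the 18, 17 were below 0, with a median of -0.17, none was called, and 11 had an unadjusted p under 0.05, all lower, where 1.81% of all genes did. The smallest p values were those of Dnajb9, an ER cochaperone (-0.16, unadjusted p = 0.0110), Hyou1, an HSP70 relative (-0.15, unadjusted p = 0.0122) and Pdia4, a disulfide isomerase (-0.31, unadjusted p = 0.0165). Hspa5 was at 541, 448, 434, 535 and 517 CPM with DN against 466, 644 and 779 in the controls. Its log2 fold change was -0.36 (SE 0.145, adjusted p = 0.999), and that of Xbp1 was -0.24 (SE 0.118). Without control replicates 1 and 2 and DN replicate 2 these were -0.17 (unadjusted p = 0.255) and -0.081 (unadjusted p = 0.464). The highest Hspa5 values, 760.4 and 779 CPM, were those of control replicates 1 and 2, which also held 4127 and 1354 CPM of choroid plexus markers. The count of 11 was 5 to 7 without any 1 of control replicates 1, 2 and 6 or DN replicates 2 to 5, both rich and poor in these markers. It was 14 without control replicate 3 or 4 (medians -0.22 and -0.21), 11 without DN replicate 1 and 9 without control replicate 5. Without control replicates 1 and 2 and DN replicate 2 together, the chaperone median was -0.09 and none of the 18 had an unadjusted p under 0.05. The median of the ATF4 targets was then -0.0042, with none at an unadjusted p under 0.05. The part of choroid plexus in the chaperone estimates was not tested.

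The tTA genotype was compared within experiment 2, with exposure in the model (5 tTA+ against 3 tTA- mice). No ATF4 target was called and none had an unadjusted p under 0.05, where 0.358% and 5.71% of the 22904 genes did. The median over the 10 was 0.02, with 6 above 0. With 1 library left out the median ran from -0.038 (without homecage replicate 3) to 0.11 (without SOR replicate 1), and 4 to 8 of the 10 were above 0. The largest estimates were those of Trib3 (0.27, SE 0.384, and 0.068 without homecage replicate 1 and 0.47 without homecage replicate 2) and Psat1 (0.17, SE 0.093, unadjusted p = 0.0974). Psat1 reached an unadjusted p under 0.05 without SOR replicate 2 and with all 19 libraries in 1 fit, and was -0.098 with the replicate block. With that block the tTA estimate rested on replicates 2, the only number with both tTA genotypes.

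The regulators upstream of the targets were measured at the level of their messengers, which does not show eIF2alpha phosphorylation or ATF4 protein. Atf4 was at 146, 119, 141 and 116 CPM after SOR, against 104, 97.7, 114 and 114 in the homecage, with no overlap (all genes: 5.71%). Its log2 fold change was 0.28 (SE 0.099, unadjusted p = 0.0163), and at an adjusted p of 0.621 it did not pass the test. In tTA+ mice alone it was 0.13 (unadjusted p = 0.356). Ddit3 (CHOP), a transcription factor downstream of ATF4, was at 24.4, 20.5, 26.0 and 22.5 CPM after SOR, against 22.4, 17.8, 19.6 and 19.1 in the homecage. Its log2 fold change was 0.24 (SE 0.107, unadjusted p = 0.0443, adjusted p = 0.650). Ddit3 overlaps a further Ddit3 entry by 105 exonic bases and also overlaps Mars on the opposite strand. Atf3, a stress-induced repressor, had 0.52 (SE 0.250, unadjusted p = 0.0591), and 0.16 (unadjusted p = 0.590) without SOR replicates 1 and 2. Ppp1r15a (GADD34), which guides the phosphatase that removes the eIF2alpha mark, had 0.01 (SE 0.107), and the sign of this estimate turned in 6 of 16 alternatives. With DN the estimates were -0.06 for Atf4, -0.11 for Ddit3, -0.34 for Atf3 and -0.03 for Ppp1r15a, and none had an unadjusted p under 0.05. Without the experiment 1 libraries rich in choroid plexus markers they were 0.022, -0.022, -0.16 and -0.060. Of the whole list of 12 kinases and factors, 10 were above 0 after SOR (median 0.06) and 10 below 0 with DN (median -0.05), with none called.

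Other genes known as ATF4 targets were read from lists. Of 12 further genes of amino-acid synthesis and transport, 8 were above 0 after SOR (median 0.19) and none was called. The smallest p was that of Cth, which makes cysteine from cystathionine (0.52, SE 0.168, unadjusted p = 0.00968, adjusted p = 0.604, and 0.25 in tTA+ mice alone), followed by Psph (0.31), the phosphatase that follows Psat1 in serine synthesis, and the glycine transporter Slc6a9 (-0.25). Over the 16 alternatives Psph ran from 0.15 to 0.41 and Slc6a9 from -0.38 to -0.16. With DN, Slc6a9 had 0.27 (unadjusted p = 0.00727) and Psph -0.12 (unadjusted p = 0.0426), the list's median was -0.05, and none was called. Of 12 cytosolic tRNA synthetases, 11 were above 0 after SOR (median 0.16, none called), with the smallest p for Tars (0.24, unadjusted p = 0.0396), Aars (0.26) and Yars (0.30). Without SOR replicate 3 these were 0.16, 0.11 and 0.057, and without replicates 1 and 2 they were 0.31, 0.38 and 0.50. With DN, 4 were above 0, the median was -0.0078 and none was called. Of the other stress effectors, 7 of 8 were tested after SOR: 6 were above 0 (median 0.32) and none was called. The smallest p values were those of the mTORC1 inhibitor Ddit4 (0.35, unadjusted p = 0.0108) and of Jdp2, a repressor of AP-1 (0.58, unadjusted p = 0.0207), before the autophagy receptor Sqstm1 (0.20). Jdp2 also had 0.66 with tTA (unadjusted p = 0.000986, adjusted p = 0.137), and it was called for tTA in 4 of 13 alternatives. After SOR, Jdp2 was at 0.43 with tTA as a covariate and at 0.45 in tTA+ mice alone. Over the 16 alternatives after SOR, Jdp2 ran from 0.39 to 0.77 and Sqstm1 from 0.13 to 0.29. With DN, 6 of the 8 were tested, 2 were above 0, the median was -0.01 and none was called.

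Paralogs of the targets that are not on the list gave no call either. Of 8, 5 were above 0 after SOR, with a median of 0.01, and 2 with DN, with a median of -0.04. The smallest p after SOR were those of Trib2 (0.30, unadjusted p = 0.0111) and Sesn1 (0.23, unadjusted p = 0.0161), whose groups did not overlap (all genes: 5.71%), and then Slc7a8 (-0.21). Their relatives among the ATF4 targets, Trib3 and Sesn2, had 0.27 and 0.12 with wider intervals. With DN, Trib2 had -0.11 (unadjusted p = 0.0479). The difference between paralog and target was not tested.

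**Figure D3:**
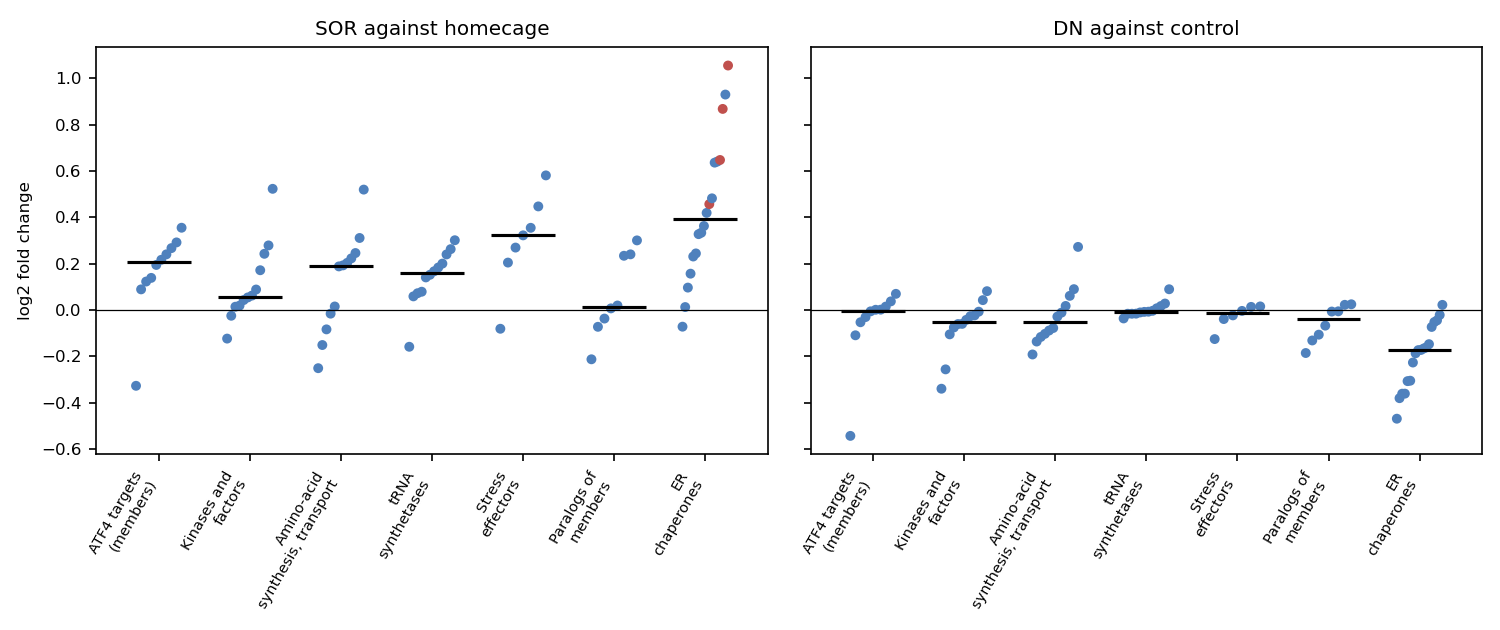
log2 fold change (y axis) of each gene of the 7 lists; left, SOR against homecage, right, DN against control; red points are genes called at an adjusted p under 0.05, and the black bars are list medians. Among these lists, called genes appear only in the ER chaperones after SOR; the ATF4 target median is 0.21 after SOR and -0.0025 with DN, and the chaperone median is 0.39 and -0.17.

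Marker genes of other cell types were read in the same libraries, and their part in the results was not tested. In bulk tissue, fewer cells of a type and less RNA per cell cannot be told apart. After SOR, all 8 choroid plexus markers were above 0 (median 2.62, none called), with a summed level of 22.4 to 2190.3 CPM against 43.2 to 170.0 in the homecage. With DN all 8 were below 0 (median -0.95, none called), with 24.9 to 1650.4 CPM against 18.4 to 4127. Of the 8 endothelial markers, 3 were above 0 after SOR (median -0.05), and the glucose transporter Slc2a1 rose by 0.58 (adjusted p = 0.0432). Slc2a1 was called in 6 of 16 alternatives, and not with the replicate block (adjusted p = 0.123) or tTA as a covariate (adjusted p = 0.0823). Of the other endothelial markers, named after their values were seen, the receptor Kdr (-0.55, adjusted p = 0.157), Ly6c1 (0.56, adjusted p = 0.489) and the receptor Tek (-0.23, adjusted p = 0.621) had an unadjusted p under 0.05 and were not called. Kdr and Ly6c1 were each called in 2 of 16 alternatives and Tek in 0, and Ly6c1 was at 0.30 in tTA+ mice alone. The summed endothelial level was 197 to 232 CPM after SOR and 193 to 209.5 in the homecage. Astrocyte markers, of interest because astrocytes express Phgdh and Slc7a11, had 5 of 8 above 0 after SOR (median 0.11, 4986 to 5765 against 5147 to 5587 CPM). After SOR, 6 of 6 leptomeningeal markers were above 0 (median 0.04), 7 of 8 of oligodendrocytes (0.14), 3 of 6 of microglia (0.04) and 2 of 6 of hippocampal neurons (-0.07), with none called. With DN the medians of these lists were 0.0017 for astrocytes, 0.03 for endothelium, 0.20 for leptomeninges, -0.06 for oligodendrocytes, -0.02 for microglia and -0.05 for neurons, with none called. No defining marker was at 0 in a whole group.

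From mouse to mouse within experiment 1, Xbp1 and the 3 chaperones examined (Sdf2l1, Manf and Dnajc3, those called after SOR beside Hspa5) followed Hspa5, and the ATF4 targets did not do so detectably. Over the 11 libraries, DN and control together, Pearson's r of log2 CPM with Hspa5 ranged from -0.52 (Slc7a5) to 0.55 (Trib3) over the 10 targets. With values centred on the group means it ranged from -0.44 (Slc7a5) to 0.31 (Trib3). None passed the permutation test, with adjusted p of 0.4995 or more for r over the 10 relations. For Trib3, Spearman's rho was 0.47 (permutation p = 0.147 for rho, 0.0811 for r) and r was 0.33 without the 2 libraries farthest from the median of Hspa5. For Slc7a5, rho was -0.56 (permutation p = 0.0756 for rho, 0.0999 for r) and r was -0.43 without those 2. Slc7a11 had r of 0.44 and rho of 0.39 (permutation p = 0.175 and 0.237), and r of 0.67 without those 2 (permutation p = 0.0495, adjusted 0.495). The other 7 had r between -0.09 and 0.25, and some were farther from 0 in the alternatives. Psat1 had r of -0.59 in the 6 controls alone, and without those 2 libraries Asns had 0.45 and Phgdh -0.43. None of these passed. Over all 22390 other genes the median r was -0.01, and 4.83% had r of 0.6 or more.

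Of the 4 stress factors, Ddit3 followed Hspa5 closely, with r of 0.92 and rho of 0.95 (permutation p = 0.00017 and 6e-05, adjusted 0.00068 and 0.00024 over 4 relations), and r was 0.91 without the 2 farthest libraries. Its slope was 0.37 log2 units per log2 unit of Hspa5. Atf4 had r of 0.68 and rho of 0.63 (permutation p = 0.0233 and 0.0448, adjusted 0.0310 and 0.0897). Without the 2 farthest libraries its r was 0.19, so that the relation rested on those libraries, and in the 6 controls alone it was 0.97. Atf3 had r of 0.73 and rho of 0.52 (permutation p = 0.0116 and 0.105, adjusted 0.0231 and 0.140), and r of 0.40 without those 2. With values centred on the group means, r was 0.90 for Ddit3, 0.66 for Atf4 and 0.69 for Atf3. Ppp1r15a had r of 0.19 and rho of 0.24 (permutation p = 0.563 and 0.484). Both libraries left out were controls, replicates 1 and 2, the pair rich in choroid plexus markers. Xbp1 (r 0.97, rho 0.96), Manf (0.99, 0.96), Dnajc3 (0.99, 0.98) and Sdf2l1 (0.93, 0.88) all followed Hspa5, with permutation p for r from 1e-05, the smallest the resamples can give, to 0.00018. Without those 2 libraries their r ranged from 0.81 to 0.99, and with values centred on the group means from 0.88 to 0.99.

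**Figure D4:**
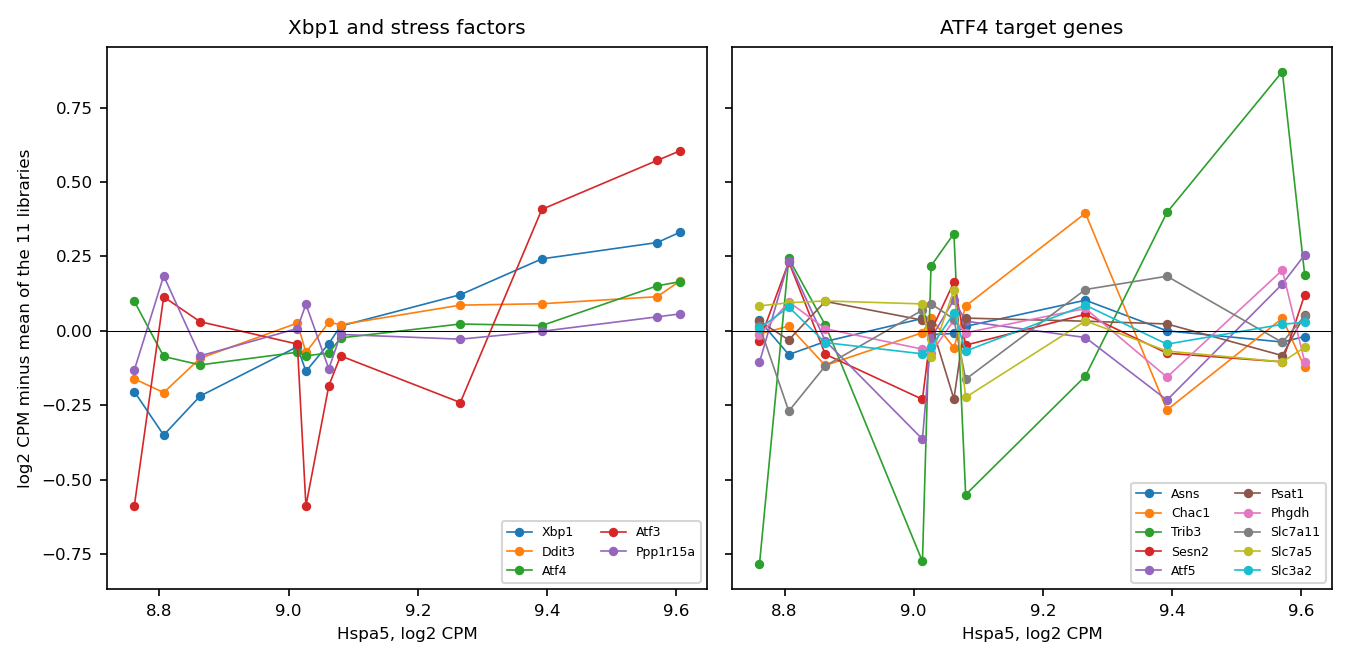
log2 CPM of each gene minus its mean over the 11 libraries of experiment 1 (y axis) against log2 CPM of Hspa5 (x axis); each point is 1 library, and lines join the points of a gene in order of Hspa5. Xbp1 and Ddit3 climb with Hspa5 (r 0.97 and 0.92), while the ATF4 targets spread around 0 with no shared slope (r from -0.52 to 0.55).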

How the data were processed

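Per the submitters' processing notes, reads were handled with STAR, SAMtools 1.6 and featureCounts 1.4.4 on mm10. The annotation and the use of strand are not given in the sources used here. Trizol-extracted RNA depleted of ribosomal RNA went into TruSeq libraries, per the labels' protocols. The authors deposited whole-number read counts per gene, unnormalized, which were used as they stand. Symbols, coordinates and exon lengths came from GENCODE M21, and promoter sequences from RefSeq.

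Each experiment was fitted alone over all genes kept by filterByExpr, with edgeR 4.0.16 quasi-likelihood F tests (TMM, robust, two-sided, R 4.3.3) and Benjamini-Hochberg adjustment. The call threshold was an adjusted p under 0.05. The SE of a log2 fold change is its size over the square root of F. The script was tested on simulated data with planted changes larger than any estimate of the ATF4 targets, which says nothing of smaller changes. P-values measure the spread between mice, and counting error is only part of it. Replicates of a group differed by a chi-square per degree of freedom of 4.63 or more, so none was a repeat.

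The members and lists were chosen with earlier results of these data known. Beside the 10 members, the lists held kinases and factors (12), amino-acid genes (12), tRNA synthetases (12), other stress effectors (8), paralogs (8), ER chaperones (18) and markers of 7 cell types. Named were all members, Atf4, Ddit3, Atf3, Ppp1r15a, Hspa5 and Xbp1, called list genes, and otherwise up to 3 genes of a list with the smallest p. The ratios to Hspa5 and the fits without libraries over 500 CPM of choroid plexus markers were added after the data were seen. Alternatives were DESeq2 size factors, DESeq2 1.42.0, no filter on low counts, a replicate block, 1 fit of all libraries, leaving out each library in turn, tTA+ mice alone, and tTA as a covariate.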

Additional observations from a re-analysis of the deposited data

Results flagged for a closer look

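Of 48 sets of values tested (12 genes in 4 groups), 4 had a library far from the others of its group, and chance flags about 1 in 20. Asns was at 127 CPM in control replicate 5 of experiment 1, where the next library was at 118 and the lowest at 115. Its gap was 0.742 of the range, above Dixon's critical value of 0.625. Psat1 was at 105 CPM in DN replicate 4, where the others lay at 120.1 to 126 (0.711 against 0.71). Slc7a5 was at 22.1 CPM in DN replicate 1, where the others lay at 27.3 to 28.4 (0.836 against 0.71). Slc3a2 was at 117 CPM in SOR replicate 3, the library with the fewest counts, where the others lay at 87.3 to 91.5 (0.858 against 0.829).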

How the results depend on the processing

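No alternative called any of the 10 ATF4 targets in any comparison. Depth limits Trib3 most, at 6 to 28 counts per library. The share of all genes at an unadjusted p under 0.05 was counted in the main fits only. Counts of targets and chaperones at that p in the alternatives therefore have no such share beside them. After SOR, targets at an unadjusted p under 0.05 numbered 1, with 2 in the fit with the replicate block, 4 with all 19 libraries in 1 fit, 0 in tTA+ mice alone, and 0 to 4 with 1 library left out; with DN they numbered 0, and 0 to 1 with 1 library left out. All genes called after SOR numbered 20, against 36 with no filter, 116 with DESeq2, 9 with the block, 100 with all 19 libraries, 11 with tTA as a covariate, 0 in tTA+ mice alone, 1 without the libraries rich in choroid plexus markers, and 1 to 50 with 1 library left out. With tTA they numbered 82, against 265 with no filter, 255 with DESeq2, 0 with the block, 383 with all 19 libraries and 10 to 290 with 1 library left out. The causes of these moves were not tested. By the design, the tTA estimate with the replicate block rested on replicates 2, 1 tTA- and 1 tTA+, set against the other pairs. No other number held both tTA genotypes. In experiment 2 the replicate number goes partly with tTA: both replicates 1 were tTA-, and both replicates 3 and both replicates 4 were tTA+. Residual correlations of same-numbered libraries ran from -0.050 to 0.194 in experiment 1 and from 0.045 to 0.391 in experiment 2. Of the libraries, 3 of 10 and 3 of 8 correlated best with their own number. These values do not settle whether the numbers pair the samples. Where 1 arm kept 2 libraries, they were assumed to vary like the others.

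Signs turned for the following printed estimates and correlations, none of which passed its test. With tTA, Psat1 was -0.098 with the replicate block, and the number of targets above 0 was 4 to 8 with 1 library left out, against 6. The median of the 10 with DN was 0.022 without control replicate 5 and 0.010 without DN replicate 5, and with tTA it was -0.038 to 0.11 with 1 library left out. After SOR in tTA+ mice alone, Asns was -0.046 and Chac1 -0.11. Ppp1r15a after SOR was -0.016 with all 19 libraries, -0.023 with tTA as a covariate, -0.038 in tTA+ mice alone, and -0.044 to 0.057 with 1 library left out. With DN, Asns was -0.000621 with size factors and -0.000578 with DESeq2, and Slc3a2 was -0.000312 and -0.000230. With the replicate block Slc3a2 was -0.0076 and Phgdh -0.011. Without the libraries rich in choroid plexus markers, Sesn2 was -0.0025, Atf5 0.0058, Slc3a2 -0.0059 and Atf4 0.022 with DN. With 1 library left out, DN estimates ran from -0.0076 to 0.023 for Asns, -0.054 to 0.087 for Chac1, -0.018 to 0.096 for Sesn2, -0.096 to 0.048 for Atf5, -0.013 to 0.059 for Phgdh, -0.019 to 0.022 for Slc3a2 and -0.080 to 0.0018 for Ppp1r15a. Correlations with Hspa5 turned to -0.0053 for Asns, 0.26 for Sesn2 and 0.12 for Phgdh in the 6 controls alone, and to 0.016 for Sesn2 and 0.048 for Phgdh with values centred on the group mean. Without the 2 farthest libraries they turned to 0.061 for Chac1, -0.33 for Atf5, -0.087 for Slc3a2 and -0.025 for Ppp1r15a.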
